A study of Rattus norvegicus with 46 samples.

Results

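The 10 genes described here encode chaperones, folding enzymes and co-factors of the endoplasmic reticulum: Hspa5, Hsp90b1, Hyou1, Calr, Pdia3, Pdia4, Dnajb9, Sdf2l1, Manf and Creld2. They were found by symbol among 32552 genes of the count table, each symbol had 1 row, and all 10 passed the filter on low counts in both tissues. Secreted and membrane proteins enter the endoplasmic reticulum as unfolded chains and are folded there by Hsp70 and Hsp90 chaperones, by lectin chaperones that bind their sugar chains and by disulfide isomerases. When unfolded protein builds up, the sensors IRE1, PERK and ATF6 raise the transcription of many of these genes, a programme called the unfolded protein response. Hepatocytes secrete most of the proteins of blood plasma and hold a large endoplasmic reticulum, whereas in muscle fibres much of this membrane system is the sarcoplasmic reticulum, a calcium store.

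Bulk RNA sequencing was made of liver and quadriceps muscle from wild-type (WT) rats with diet-induced obesity (DIO). CagriSema pairs cagrilintide, which acts like the pancreatic hormone amylin, with semaglutide, which activates the receptor of the gut hormone GLP-1. Weight-matched rats lost weight through food restriction instead, and vehicle rats were the controls. The liver groups held 7 CagriSema, 8 weight-matched and 8 vehicle libraries, and the quadriceps groups held 8, 8 and 7 in the same order. Livers were collected after 20 days of treatment, and this time is not taken to hold for muscle. Whether every library is from its own rat is not stated, so the p-values reflect how these libraries vary, which may be partly technical. In bulk tissue, fewer cells of a type and less RNA per cell cannot be told apart.

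Depth was 9888858 to 15948219 counts per liver library and 11462369 to 16525274 per quadriceps library. Liver vehicle libraries 4 and 6 and quadriceps vehicle libraries 2, 5 and 8 were taken as standing apart, from earlier results of these data. Many results are given with and without them. Where only the value with all libraries is given, it may depend on these libraries too. Liver vehicle library 4 had a TMM factor of 0.742, the lowest of the 46. The labels of the tissues fitted their markers: the 5 hepatocyte markers summed to 81045 to 126056 CPM in vehicle livers and to 0.251 to 39.6 CPM in vehicle quadriceps. Conversely, 5 markers of skeletal muscle fibres summed to 1.61 to 81.4 CPM in vehicle livers and to 100968 to 159169 CPM in vehicle quadriceps.

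The promoters of several of these genes are known for the endoplasmic reticulum stress element (ERSE), whose letters are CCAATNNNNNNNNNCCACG. RefSeq windows on build GRCr8, from 250 bases before to 50 bases after the gene start, matched 8 of the 10 genes with 9 windows, Hyou1 having 2, and those of Pdia3 and Manf were not used here. Searched on both strands, the ERSE letters were found in the windows of Hspa5, Hsp90b1, Calr and Creld2, 4 of 8 genes. Of 22 other chaperone and folding enzyme genes with a window, 3 held them, Canx, Dnajc3 and Ero1b. Over all genes, 22 of 33469 windows did (0.066%), a share of windows and not of genes. A second form, ERSE-II, with the letters ATTGGNCCACG, was found in 1 of the 8, Hyou1, in 1 of the 22, Dnajb11, and in 0.051% of all windows. The same Hyou1 window also held TGACGTGG, the core of the unfolded protein response element, which overlapped an ERSE-II match and stood in 1 of the 22, Dnajc10, and in 0.595% of all windows. CCACG, the end that both stress elements share, stood in at least 1 window of all 8 genes, in 16 of the 22 and in 31.6% of all windows. These matches describe letters and were not tested for binding or against the levels of the genes. The ERSE matches follow, read 5′ to 3′ along the strand that carries them, with the fixed letters in capitals. They lay on the strand of the gene in Hspa5 and at the first Hsp90b1 match, and on the opposite strand otherwise.
Hspa5: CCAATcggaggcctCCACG
Hsp90b1, first match: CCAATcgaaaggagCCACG
Hsp90b1, second match: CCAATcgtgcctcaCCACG
Calr: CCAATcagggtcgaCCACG
Creld2: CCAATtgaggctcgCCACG
The 250 bases before the gene start are given for 4 of the genes along the strand of the gene, with ERSE, ERSE-II and TGACGTGG matches in capitals (a match on the opposite strand reads as its reverse complement). They are chr3:38452766-38453015 (plus strand) for Hspa5, chr7:23012294-23012543 (minus strand) for Hsp90b1, chr19:40213117-40213366 (plus strand) for Calr and chr8:53602632-53602881 (plus strand) for Hyou1, all on GRCr8.
Hspa5: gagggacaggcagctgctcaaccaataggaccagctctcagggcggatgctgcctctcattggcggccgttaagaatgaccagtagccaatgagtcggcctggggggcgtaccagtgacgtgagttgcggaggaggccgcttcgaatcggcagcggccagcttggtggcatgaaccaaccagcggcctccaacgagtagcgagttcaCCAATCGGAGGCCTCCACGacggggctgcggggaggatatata
Hsp90b1: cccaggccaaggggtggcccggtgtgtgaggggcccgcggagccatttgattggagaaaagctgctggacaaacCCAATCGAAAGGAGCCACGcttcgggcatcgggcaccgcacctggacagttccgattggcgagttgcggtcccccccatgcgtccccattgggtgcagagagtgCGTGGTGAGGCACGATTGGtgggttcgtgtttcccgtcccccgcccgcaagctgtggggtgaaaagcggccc
Calr: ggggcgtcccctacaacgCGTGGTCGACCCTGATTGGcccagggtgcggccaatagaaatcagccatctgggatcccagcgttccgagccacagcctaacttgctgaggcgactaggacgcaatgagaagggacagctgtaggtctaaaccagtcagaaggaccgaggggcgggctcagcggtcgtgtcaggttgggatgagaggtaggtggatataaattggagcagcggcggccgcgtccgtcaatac
Hyou1: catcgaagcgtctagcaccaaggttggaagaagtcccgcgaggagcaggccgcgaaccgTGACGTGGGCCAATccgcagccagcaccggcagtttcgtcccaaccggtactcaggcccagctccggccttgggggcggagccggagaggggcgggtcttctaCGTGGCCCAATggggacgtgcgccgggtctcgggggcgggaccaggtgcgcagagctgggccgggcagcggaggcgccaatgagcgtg
The Hspa5 match ended 25 bases before the start, and the Hsp90b1 matches ended 158 and 54 bases before it. In Calr the match ended 214 bases and in Creld2 127 bases before the start.

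The comparison of weight-matched with vehicle livers asked what food restriction alone did to these genes. Calr and Pdia3, a lectin chaperone and the disulfide isomerase it recruits, were lower in weight-matched livers, and the other 8 did not pass the test. Calreticulin, the product of Calr (ENSRNOG00000003029), holds newly made glycoproteins by their glucose-tipped sugar chains and binds calcium. Its lowest, median and highest levels were 544, 731 and 971 CPM in weight-matched livers, against 777, 918 and 1504 CPM in vehicle livers. The groups overlapped, and vehicle library 4 held the highest value by a wide margin. The log2 fold change was -0.41 ± 0.12 (SE; edgeR adjusted p = 0.0380). Pdia3 (ENSRNOG00000015018), also called ERp57, had 439.9, 506 and 624 CPM in weight-matched livers, against 534, 601 and 770.2 CPM in vehicle livers. All but 2 weight-matched libraries, 25 and 26, lay below the lowest vehicle library. Pdia3 differed by a log2 fold change of -0.25 ± 0.08 (SE; edgeR adjusted p = 0.0468). Without vehicle libraries 4 and 6, neither gene passed: Calr stood at -0.25 (adjusted p = 0.0921) and Pdia3 at -0.18 (adjusted p = 0.0888) on the log2 scale in edgeR. Of 23 edgeR fits that each left out 1 liver library, Calr passed in 14 and Pdia3 in 4. Calr lost its call without vehicle library 1 or 6 or weight-matched library 25, 27, 28, 29, 30, 31 or 32, and Pdia3 kept its call only without vehicle library 5, 7 or 8 or weight-matched library 26.

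Read against all genes, 2 of 10 members were called where 7.02% of 12702 genes were. Their median log2 fold change was -0.24, with 7 of 10 below 0, beside -0.01 over all genes. Without vehicle libraries 4 and 6 the members' median was -0.10, and 7 of 10 were again below 0. In that fit 0 of 10 members were called, beside 8.16% of 12762 genes. Genes of ribosomal proteins took 1.97% of the counts of vehicle library 4, against at most 1.002% in every other liver library, and the part of this in the result was not tested. The 5 hepatocyte markers summed to a median of 72529.5 CPM in CagriSema, 91718 CPM in weight-matched and 100917 CPM in vehicle livers, and 7 macrophage markers to 398, 296 and 383 CPM in the same order. Against vehicle, 6 of 7 macrophage markers were below 0 in weight-matched livers and 6 of 7 above 0 in CagriSema livers. Their median log2 fold changes were -0.22 and 0.07, with 0 passed. All 5 stellate cell and fibroblast markers were above 0 against vehicle, with a median log2 fold change of 0.60 in CagriSema and 0.34 in weight-matched livers, and 1 of them, Pdgfra, passed in both. Their sums were 131 to 222 CPM in CagriSema, 91.0 to 205 CPM in weight-matched and 92.4 to 166 CPM in vehicle livers. The 4 endothelial markers were also above 0, at medians of 0.28 and 0.30, with 0 passed. Of the hepatocyte markers 4 of 5 were below 0, at medians of -0.42 and -0.28, and 1 passed in each comparison, Alb in CagriSema and Apoa1 in weight-matched livers. The part of these in the liver results was not tested either.

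**Figure D1:**
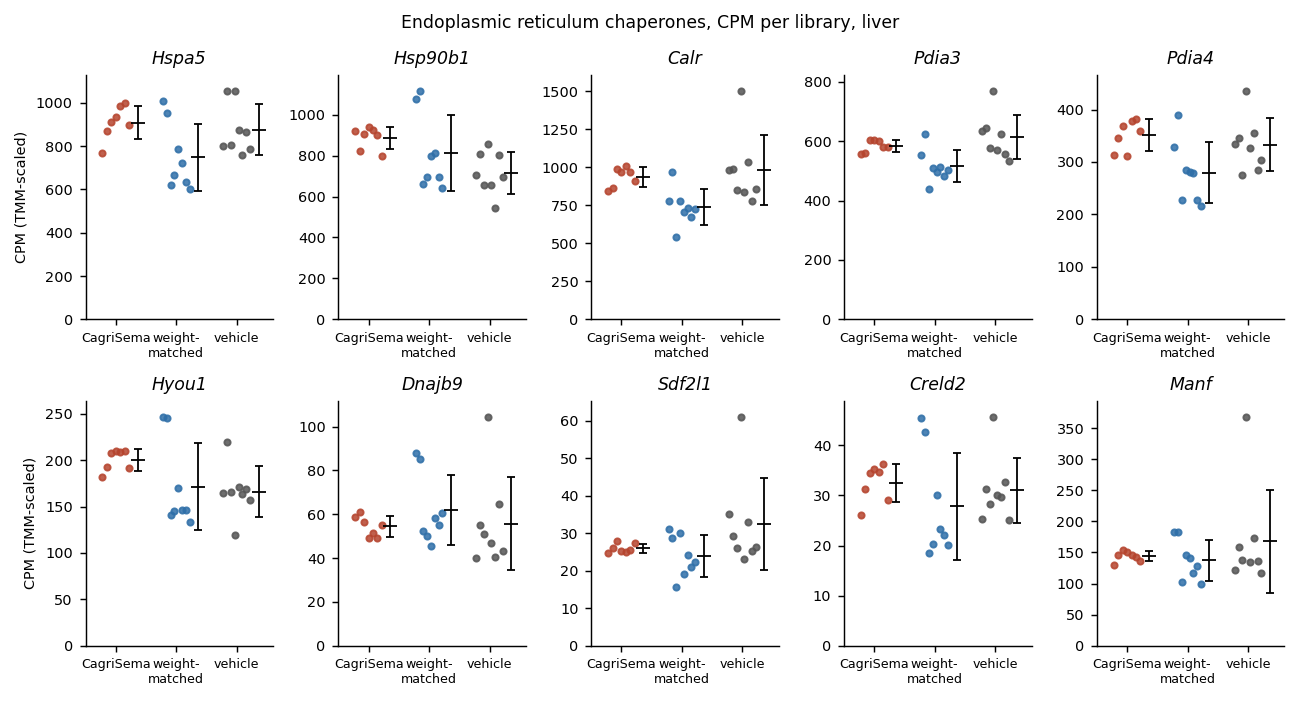
Level in CPM (counts scaled to a common library size, with TMM factors) of each gene in each liver library, with CagriSema left, weight-matched in the middle and vehicle right. Points are libraries and bars give mean ± SD; vehicle library 4 is the top vehicle point for 9 genes, at 368 CPM for Manf, and the CagriSema points lie close together.

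Of the general chaperones, Hspa5 (ENSRNOG00000018294), the Hsp70 protein BiP that binds exposed greasy stretches and keeps the stress sensors silent, had 602, 694 and 1007 CPM in weight-matched livers, against 758, 834 and 1057 CPM in vehicle livers. Most weight-matched libraries lay below every vehicle library, while 25 and 26 lay among the highest of both groups. Its log2 fold change of -0.23 ± 0.11 did not pass (edgeR adjusted p = 0.204). Hsp90b1 (ENSRNOG00000026963), the Hsp90 protein GRP94, had 641, 747 and 1117 CPM in weight-matched livers, against 544, 701 and 854 CPM in vehicle livers. Here the order of the medians was the reverse of that in Hspa5, with a log2 fold change of 0.18 ± 0.11 that did not pass (edgeR adjusted p = 0.331). Hyou1 (ENSRNOG00000010944), a large Hsp70 relative that exchanges nucleotide on BiP, had 134, 146 and 247 CPM in weight-matched livers, against 119, 165 and 219.6 CPM in vehicle livers. It is the 1 member for which vehicle library 4 held the lowest vehicle value, and its log2 fold change was 0.05 ± 0.13 (edgeR adjusted p = 0.845), and -0.02 without vehicle libraries 4 and 6.

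Among the remaining members, Pdia4 (ENSRNOG00000006228), a disulfide isomerase also called ERp72, had 217, 280.1 and 389.9 CPM in weight-matched livers, against 276, 330.0 and 436 CPM in vehicle livers. Its log2 fold change was -0.25 ± 0.11 (edgeR adjusted p = 0.169). Sdf2l1 (ENSRNOG00000001859), a partner of BiP's J-domain co-factors, had the lowest estimate of the 10 at -0.43 ± 0.17, and it did not pass (edgeR adjusted p = 0.117). Its levels were 15.6, 23.2 and 31.2 CPM in weight-matched livers, against 23.1, 27.8 and 61.0 CPM in vehicle livers. Leaving out vehicle libraries 4 and 6 brought Sdf2l1 to -0.20, and it turned the sign of Manf, which encodes a BiP-binding protein that cells can also secrete. Manf (ENSRNOG00000014201) had 98.6, 134 and 183 CPM in weight-matched livers, against 117, 137 and 368 CPM in vehicle livers. It stood at -0.29 ± 0.19 with all libraries and at 0.03 without these, and passed in neither fit (edgeR adjusted p = 0.346 and 0.899). Dnajb9 (ENSRNOG00000004006), the J-domain co-factor ERdj4, and Creld2 (ENSRNOG00000004659), a stress-inducible protein of the endoplasmic reticulum, were at 0.15 ± 0.17 and -0.15 ± 0.17 and did not pass (edgeR adjusted p = 0.598 and 0.598). Dnajb9 levels were 45.5, 56.6 and 88.0 CPM in weight-matched livers, against 40.2, 49.1 and 104 CPM in vehicle livers. Creld2 levels were 18.5, 22.7 and 45.5 CPM in weight-matched livers, against 25.1, 29.9 and 45.7 CPM in vehicle livers.

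In CagriSema livers none of the 10 genes differed from vehicle by the test. With edgeR, 0 of 10 members were called, beside 0.354% of 12702 genes. An unadjusted p under 0.05 was found for 1 of 10 members, beside 17.8% of all genes. DESeq2 also called 0 of 10. The estimates lay on both sides of 0, 5 above and 5 below, with a median of 0.01 beside -0.02 over all genes. Without vehicle libraries 4 and 6, 8 were above and 2 below, with a median of 0.11, and again 0 of 10 were called. The highest estimate was that of Hsp90b1, at 799, 903 and 938 CPM in CagriSema livers, against 544, 701 and 854 CPM in vehicle livers. Of the 7 CagriSema libraries 5 lay above the highest vehicle library, and the groups overlapped. The estimate was a log2 fold change of 0.31 ± 0.12 (SE; edgeR adjusted p = 0.201), and it was 0.30 without vehicle libraries 4 and 6.

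Hyou1 came next, at 181, 208 and 210.3 CPM in CagriSema livers, against 119, 165 and 219.6 CPM in vehicle livers, with a log2 fold change of 0.27 ± 0.13 (edgeR adjusted p = 0.287). Every CagriSema library exceeded all but 1 vehicle library, number 2. Hspa5 had 769, 909.8 and 998 CPM in CagriSema livers, and Calr, Pdia3 and Pdia4 had 845, 967 and 1009 CPM, 558, 579.6 and 603 CPM and 311, 359 and 383 CPM. Their log2 fold changes against vehicle were 0.05 ± 0.11 for Hspa5, -0.07 ± 0.12 for Calr, -0.07 ± 0.08 for Pdia3 and 0.08 ± 0.12 for Pdia4. None of these 4 passed, with edgeR adjusted p from 0.633 to 0.814. Calr turned to 0.09 without vehicle libraries 4 and 6, uncalled (edgeR adjusted p = 0.745). The co-factor genes had levels of 49.0, 55.3 and 60.9 CPM for Dnajb9, 24.6, 25.4 and 27.8 CPM for Sdf2l1 and 130.3, 146 and 154 CPM for Manf in CagriSema livers. Creld2 had 26.1, 34.5 and 36.3 CPM there. Sdf2l1 had the lowest estimate, -0.32 ± 0.17 with all libraries (edgeR adjusted p = 0.324) and -0.08 without vehicle libraries 4 and 6. Manf stood at -0.22 ± 0.20 and at 0.10 without them, again uncalled in both edgeR fits (adjusted p = 0.543 and 0.773). Dnajb9 and Creld2 stood at -0.03 ± 0.18 and 0.07 ± 0.18 (edgeR adjusted p = 0.939 and 0.858), and Dnajb9 at 0.12 without these libraries (edgeR adjusted p = 0.766).

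The comparison of CagriSema with weight-matched livers asked what the drug did beyond weight loss. Of the 10 members 9 had estimates above 0, and 0 passed the edgeR test, beside 0.535% of 12702 genes called. An unadjusted p under 0.05 was found for 4 of 10 members, Hspa5, Calr, Pdia3 and Pdia4, beside 10.6% of all genes. DESeq2 called 0 of 10. The members' median was 0.20, beside 0.00 over all genes. Both this comparison and the one with vehicle above use the same weight-matched libraries, so they are not independent. Calr had 845, 967 and 1009 CPM in CagriSema livers, against 544, 731 and 971 CPM in weight-matched livers. Apart from weight-matched library 26, every weight-matched value lay below every CagriSema value. The log2 fold change was 0.34 ± 0.12 (edgeR adjusted p = 0.245). Without liver vehicle library 4, which is in neither group but shares the fit, Calr was called at 0.34 (edgeR adjusted p = 0.0424), and without libraries 4 and 6 at 0.34 (edgeR adjusted p = 0.0285). It was also called when these 2 groups were fitted alone.

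Pdia4 had 311, 359 and 383 CPM in CagriSema livers, against 217, 280.1 and 389.9 CPM in weight-matched livers, a log2 fold change of 0.33 ± 0.12 (edgeR adjusted p = 0.231). Hspa5 had 769, 909.8 and 998 CPM in CagriSema livers, against 602, 694 and 1007 CPM in weight-matched livers, at 0.28 ± 0.11 (edgeR adjusted p = 0.324). Pdia3 stood at 0.18 ± 0.08 (edgeR adjusted p = 0.395). In these 3 genes the weight-matched libraries reached from below the CagriSema group into it or above it. Dnajb9 was the exception in sign at -0.19 ± 0.18 (edgeR adjusted p = 0.858), and Hsp90b1, Hyou1, Creld2, Sdf2l1 and Manf lay between 0.07 ± 0.20 for Manf and 0.22 ± 0.13 for Hyou1 with adjusted p of at least 0.626. Summed over the 10 genes, the lowest, median and highest levels were 3823, 4228 and 4365 CPM in CagriSema livers, 2824, 3378 and 4638 CPM in weight-matched livers and 3542, 3736 and 5319 CPM in vehicle livers. Between CagriSema and weight-matched livers 7 of 7 macrophage markers were above 0, at a median log2 fold change of 0.32. The same held for 5 of 5 stellate cell and fibroblast markers, at 0.26. Hepatocyte markers were divided, 2 above and 3 below 0, as were endothelial markers, 2 and 2. None of these passed, and their part in this comparison was not tested.

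**Figure D2:**
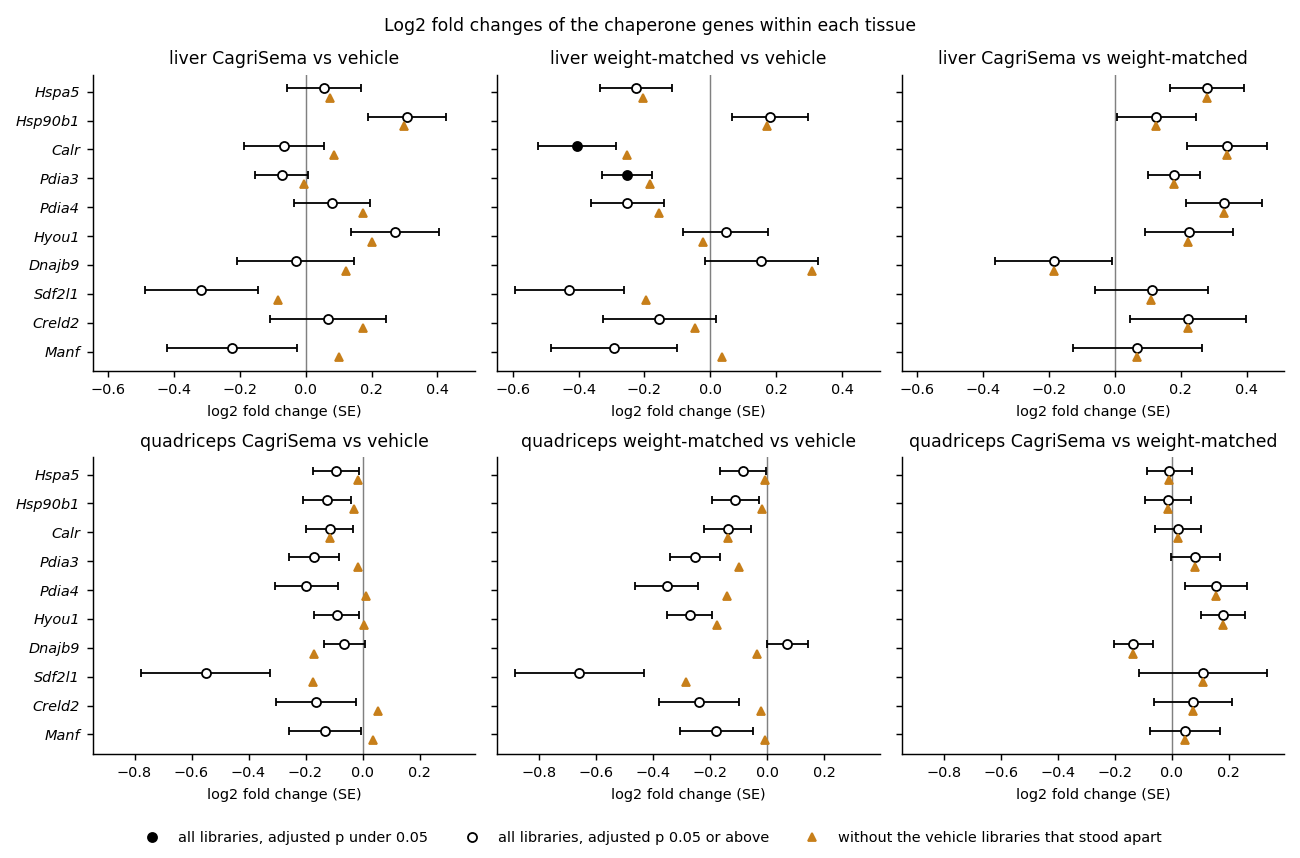
Log2 fold changes of the 10 genes in the 3 comparisons of each tissue, with the first-named group over the second. Circles with bars are estimates ± SE from all libraries, filled where the adjusted p is under 0.05, and triangles are estimates without the vehicle libraries that stood apart; the 2 filled circles are Calr at -0.41 and Pdia3 at -0.25 in weight-matched livers.

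The spread between libraries was itself unequal across the liver groups. The coefficient of variation of CPM was lowest in CagriSema livers for 10 of 10 genes, with a median of 6.53% over the genes, against 23.03% in weight-matched and 18.7% in vehicle livers. Without vehicle libraries 4 and 6 the vehicle median was 10.98%, and CagriSema livers were lowest for 9 of 10 genes. Creld2 then varied by 11.7% in CagriSema and 10.997% in vehicle livers. The share of all genes that varied least in CagriSema livers was not counted, so this is not read as a trait of these genes. Outside the list, Pdia6 had an SD of 14.3 CPM in CagriSema, 32.9 CPM in weight-matched and 92.9 CPM in vehicle livers. Os9 went the other way, at 32.6, 19.5 and 19.6 CPM in the same order. In the weight-matched group, libraries 25 and 26 both lay above all 6 others for 8 of 10 genes, Calr and Sdf2l1 being the exceptions. For Hyou1 they held 245 and 247 CPM, while the 6 others ranged from 134 to 169.6 CPM. For Creld2 they held 42.8 and 45.5 CPM, and the 6 others 18.5 to 30.01 CPM. Libraries 27 and 32 held the lowest value of the group for 9 of 10 genes. These libraries were picked by such values, and the share of all genes with the same order was not counted. The counts for them are thus not read as a trait of these genes. The share of counts in ribosomal protein genes was 0.898% in library 25 and 0.844% in library 26, inside the range of 0.764% to 1.002% of the group.

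Vehicle library 4 had another profile than these. It was the highest vehicle library for 9 of 10 genes, at 368 CPM for Manf and 61.0 CPM for Sdf2l1, and the lowest for Hyou1 at 119 CPM. The next vehicle library held 173 CPM for Manf and 35.2 CPM for Sdf2l1. A low TMM factor, here 0.742, raises all CPM of a library alike. Before this scaling the members together took 0.394% of the counts of library 4, against 0.419% in vehicle library 2. This sum does not speak for single genes, and the part of the scaling in their values was not tested. Library 4 also held the highest vehicle sums of the hepatocyte, macrophage, cholangiocyte and adipocyte markers. This did not hold for the stellate cell, endothelial, plasma cell, acinar or muscle fibre markers. After centring each gene on its group means over the 23 liver libraries, the 45 pairs of members had a median Pearson r of 0.68 and Spearman rho of 0.56, with 44 pairs above 0. The median r was 0.59 without the 2 libraries farthest from the median, vehicle 4 and weight-matched 26. The highest pair was Calr with Pdia3, at r = 0.95 and rho = 0.90. Hspa5 with Creld2 followed at r = 0.91, and Hyou1 with Sdf2l1 was the lowest at r = -0.0031. Pairs that share a library share its depth and scaling, so these values are descriptions. No share over other genes or gene pairs was taken. Neither these values nor the count of genes for library 4 are thus read as a trait of these genes.

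**Figure D3:**
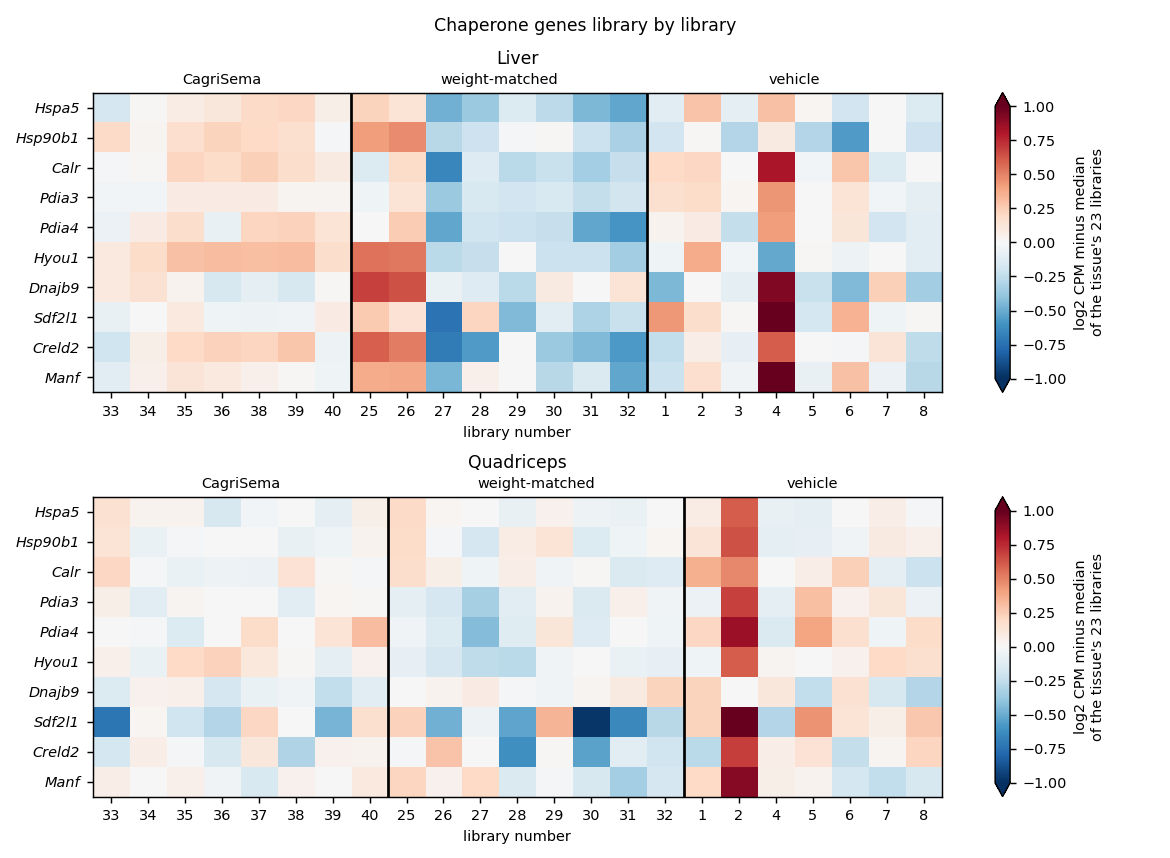
Log2 CPM of each gene (rows) in each library (columns), minus the gene's median over the 23 libraries of the tissue; red is higher and blue lower, and lines part CagriSema, weight-matched and vehicle from left to right. In liver, weight-matched libraries 25 and 26 stand above the 6 others for 8 of 10 genes, and in quadriceps vehicle library 2 is the highest of its group for 9 of 10. The share over all genes was not counted for either.

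The genes outside the list whose liver levels followed the mean of the members most closely were, by Pearson r over 23 libraries and 11856 genes, AABR07033324.1 (0.84), Tmed2 (0.83), Ahsa1 (0.83), Hsp90aa1 (0.82) and Hsp90ab1 (0.82). Tmed2 encodes a cargo receptor of transport vesicles, Hsp90aa1 and Hsp90ab1 the cytosolic Hsp90 proteins and Ahsa1 an activator of their ATPase. Their Spearman rho ran from 0.65 to 0.77, and r without the same 2 libraries from 0.66 to 0.77. In quadriceps the closest genes were Nop2, Tsc22d1, Wdr26, Cdc37l1 and Asb5, at r of 0.89 to 0.91. Leaving out quadriceps vehicle library 2 and weight-matched library 25 brought them to between 0.52 and 0.68.

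In quadriceps no member passed the test in any of the 3 comparisons. Against vehicle, 0 of 10 were called in CagriSema muscle and 0 of 10 in weight-matched muscle by edgeR, beside 0.0321% and 2.29% of 12471 genes, and 0 of 10 between CagriSema and weight-matched muscle, beside 0.128%. The numbers of members with an unadjusted p under 0.05 were 1, 4 and 1 in the same order, beside 10.3%, 19.2% and 7.65% of all genes. DESeq2 called 0, 2 and 0 members. All 10 estimates were below 0 in CagriSema muscle and 9 of 10 in weight-matched muscle, with medians of -0.13 and -0.21 beside -0.01 and -0.01 over all genes. Both comparisons share the vehicle libraries, of which library 2 held the highest value for 9 of 10 genes, a count taken without the share over all genes. Without vehicle libraries 2, 5 and 8, 6 of 10 estimates were below 0 in CagriSema muscle and 10 of 10 in weight-matched muscle, with medians of -0.02 and -0.07. The 4 that turned in CagriSema muscle were Pdia4 (0.01), Hyou1 (0.01), Creld2 (0.05) and Manf (0.04). In weight-matched muscle Dnajb9 turned from 0.07 to -0.04.

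Hyou1 and Pdia4 came nearest to the threshold in weight-matched muscle, and DESeq2 called these 2. Hyou1 had 29.2, 33.2 and 35.1 CPM in weight-matched quadriceps, against 34.05, 36.1 and 53.4 CPM in vehicle quadriceps. The groups overlapped, and vehicle library 2 stood well above the rest. Hyou1 differed by a log2 fold change of -0.27 ± 0.08 (edgeR adjusted p = 0.0639), and it passed in 1 of 23 fits that left out a library, the one without vehicle library 1 (adjusted p = 0.0343). Without vehicle libraries 2, 5 and 8 it was -0.17 (edgeR adjusted p = 0.470). Pdia4 had 11.4, 14.5 and 16.7 CPM in weight-matched quadriceps, against 13.9, 17.5 and 27.8 CPM in vehicle quadriceps. Its log2 fold change was -0.35 ± 0.11 (edgeR adjusted p = 0.0830), it passed without vehicle library 4 (adjusted p = 0.0395), and it was -0.14 without libraries 2, 5 and 8 (edgeR adjusted p = 0.738).

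Sdf2l1, the least counted member with 16 to 87 counts per quadriceps library, had 1.41, 2.17 and 2.68 CPM in CagriSema, 1.19, 1.79 and 2.94 CPM in weight-matched and 1.90, 2.72 and 6.26 CPM in vehicle quadriceps. The 3 groups overlapped. Against vehicle its log2 fold changes were -0.55 ± 0.23 in CagriSema muscle and -0.66 ± 0.23 in weight-matched muscle, the lowest estimates of the 10 genes (edgeR adjusted p = 0.380 and 0.110). Without vehicle libraries 2, 5 and 8 they were -0.17 and -0.28. Creld2 had medians of 4.12 CPM in CagriSema, 3.94 CPM in weight-matched and 4.29 CPM in vehicle quadriceps, and stood at -0.16 ± 0.14 and -0.24 ± 0.14 against vehicle, and at 0.05 and -0.02 without the 3 vehicle libraries. The groups overlapped here too, with vehicle library 2 the highest at 6.62 CPM. Manf had 16.8, 18.98 and 20.01 CPM in CagriSema, 14.8, 17.7 and 21.7 CPM in weight-matched and 15.7, 19.2 and 35.2 CPM in vehicle quadriceps, and stood at -0.13 ± 0.13 and -0.18 ± 0.13, and at 0.04 and -0.01 without the 3 vehicle libraries.

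The BiP gene Hspa5 showed nearly the same levels in the 3 groups of muscle: 159, 179.8 and 198 CPM in CagriSema, 169, 178 and 203 CPM in weight-matched and 166, 178 and 271 CPM in vehicle quadriceps. Its log2 fold changes against vehicle were -0.09 ± 0.08 and -0.09 ± 0.08, and -0.02 and -0.01 without the 3 vehicle libraries. Hsp90b1 had 112, 117 and 129 CPM in CagriSema, 105, 118 and 134 CPM in weight-matched and 111, 122 and 183 CPM in vehicle quadriceps. Calr had 208, 216 and 252 CPM in CagriSema, 197, 216 and 247 CPM in weight-matched and 188, 228 and 304 CPM in vehicle quadriceps. In both genes the medians of the 3 groups lay within the range of each group. Pdia3 had 52.6, 57.0 and 59.1 CPM in CagriSema, 45.2, 53.1 and 58.9 CPM in weight-matched and 53.1, 58.6 and 91.3 CPM in vehicle quadriceps, and its log2 fold change in weight-matched muscle was -0.25 ± 0.09 (edgeR adjusted p = 0.116).

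Between CagriSema and weight-matched quadriceps the estimates ran from -0.13 ± 0.07 for Dnajb9 to 0.18 ± 0.08 for Hyou1, with a median of 0.06. Dnajb9 had 29.5, 32.9 and 36.2 CPM in CagriSema, 34.2, 35.8 and 40.9 CPM in weight-matched and 28.6, 35.02 and 40.8 CPM in vehicle quadriceps, and it was the member whose highest vehicle value was not in library 2. The 95% interval of the log2 difference between CagriSema and weight-matched muscle was -0.16 to 0.15 for Hspa5 and -0.17 to 0.15 for Hsp90b1. In vehicle library 2 the 5 hepatocyte markers summed to 39.6 CPM and the 5 cholangiocyte markers to 210.3 CPM, both the highest of the vehicle group, whose medians were 0.427 and 12.3 CPM. In vehicle livers the cholangiocyte markers summed to at most 49.4 CPM. Of the hepatocyte markers 4, and of the cholangiocyte markers 3, averaged under 1 CPM in vehicle quadriceps, so both sums rest on few genes. Which cells they came from was not tested. The 5 stellate cell and fibroblast markers summed to 377 to 693 CPM in CagriSema, 351 to 739 CPM in weight-matched and 699 to 1588 CPM in vehicle quadriceps. Of these 5 markers 2, Col1a1 and Col3a1, were lower in weight-matched muscle by the test. The part of these in the muscle results was not tested.

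**Figure D4:**
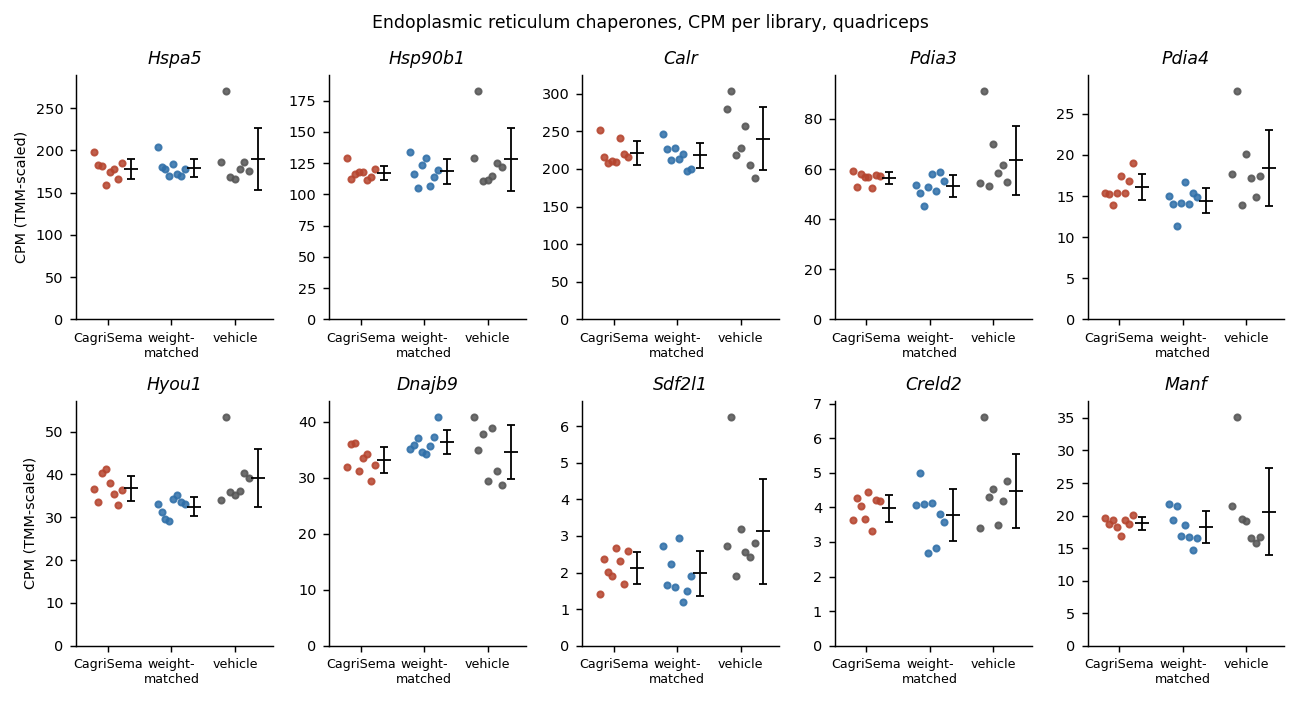
CPM (scaled by TMM) of each gene in each quadriceps library, with CagriSema left, weight-matched in the middle and vehicle right; points are libraries and bars give mean ± SD. The single high vehicle point, at 271 CPM for Hspa5 and 35.2 CPM for Manf, is vehicle library 2.

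In muscle the CagriSema group had the lowest coefficient of variation for 7 of 10 genes and the weight-matched group for 3, with medians over the 10 genes of 7.17% in CagriSema, 8.43% in weight-matched and 20.6% in vehicle quadriceps. Without vehicle libraries 2, 5 and 8 the vehicle median was 11.3%, and the lowest was in the CagriSema group for 6 genes, in the weight-matched group for 2 and in the vehicle group for 2, Hspa5 and Sdf2l1. Pairs of members had a median r of 0.52 and rho of 0.21 over 23 libraries, with 38 of 45 pairs above 0. Without the 2 farthest libraries the median r was 0.13, so most of the shared movement in muscle rested on them. In muscle too, no share over all genes was taken beside these counts of genes and pairs.

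All 10 genes were higher in vehicle liver than in vehicle quadriceps. By edgeR over both tissues, 10 of 10 passed, where 83.4% of 14110 genes passed in either direction, 6117 higher and 5648 lower in liver. The members' median log2 difference was 2.58, beside 0.08 over all genes. Pdia4 differed most, with 269, 323 and 425 CPM in liver and 14.3, 17.7 and 28.2 CPM in quadriceps on a scale common to both tissues. Every liver library exceeded every muscle library, with a log2 difference of 4.12 ± 0.13 (edgeR adjusted p = 1.27e-30). Sdf2l1 followed at 3.31 ± 0.21, Pdia3 at 3.22 ± 0.10, Manf at 2.97 ± 0.18 and Creld2 at 2.74 ± 0.17. Hsp90b1 stood at 2.43 ± 0.12, Hspa5 at 2.15 ± 0.11, Hyou1 at 2.03 ± 0.12 and Calr at 1.97 ± 0.11. The 2 neighbours Hyou1 and Calr differed by less than 1 SE, as did Sdf2l1 and Pdia3.

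Dnajb9 had the smallest difference, with 39.3, 48.0 and 102 CPM in liver and 29.01, 35.4 and 42.2 CPM in quadriceps. It was the 1 member whose tissues overlapped, at a log2 difference of 0.62 ± 0.14 (edgeR adjusted p = 8.68e-05). The genes thus kept different proportions in the tissues: Pdia4 was 17.3-fold and Pdia3 9.31-fold higher in liver, while Hspa5 was 4.43-fold and Dnajb9 1.54-fold higher. The same 10 genes passed in each of 46 fits that left out 1 library.

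**Figure D5:**
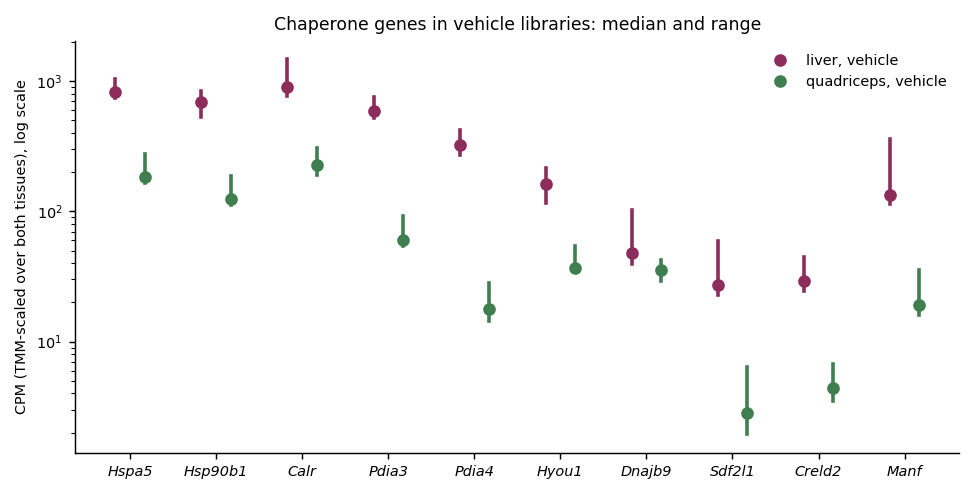
Levels of the 10 genes in vehicle libraries of liver (left of each pair) and quadriceps (right), as CPM scaled over both tissues on a log axis; points are medians and lines reach from the lowest to the highest library. The tissues are parted for 9 genes and overlap for Dnajb9, whose liver range starts at 39.3 CPM and whose quadriceps range ends at 42.2 CPM.

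Whether the treatments acted differently on these genes in the tissues was tested as an interaction. By edgeR 0 of 10 members were called for CagriSema, beside 0.149% of 14110 genes. An unadjusted p under 0.05 was found for 2 members, beside 15.0% of all genes. For weight matching 0 of 10 were called, beside 2.76%, with 1 at an unadjusted p under 0.05, beside 18.6% of all genes. DESeq2 called 0 of 10 in both. Hsp90b1 had the highest estimate for CagriSema, 0.43 ± 0.15 on the log2 scale as liver minus quadriceps (edgeR adjusted p = 0.187). Hyou1 followed at 0.36 ± 0.16 and had the highest for weight matching at 0.32 ± 0.16 (edgeR adjusted p = 0.281 and 0.265). Calr, called in weight-matched liver, stood at -0.26 ± 0.15 (edgeR adjusted p = 0.353), so its change was not shown to differ from that in muscle.

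Of 24 other chaperones and folding enzymes tested in liver, 2 fell, 0 rose and 22 did not pass in weight-matched against vehicle livers, beside 7.02% of all genes called. Their median log2 fold change was -0.20. P4hb, the classical protein disulfide isomerase, had 825, 1164 and 1255 CPM in weight-matched livers, against 1221, 1429.9 and 1709 CPM in vehicle livers. The groups overlapped at a few values, the log2 fold change was -0.38 ± 0.09 (edgeR adjusted p = 0.0112), and it passed in 23 of 23 fits that left out a library and without vehicle libraries 4 and 6. Erp29, a relative without isomerase activity, had 11.2, 14.6 and 19.9 CPM in weight-matched livers, against 14.3, 19.9 and 65.0 CPM in vehicle livers. Its log2 fold change was -0.76 ± 0.23 (edgeR adjusted p = 0.0443) and -0.29 without libraries 4 and 6 (edgeR adjusted p = 0.125), and it passed in 10 of 23 such fits. Pdia6 was at -0.35 ± 0.12 and did not pass (edgeR adjusted p = 0.0698).

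In CagriSema against weight-matched livers 1 of these 24 rose, beside 0.535% of all genes called. It was Dnajb11, the J-domain co-factor ERdj3 that brings unfolded chains to BiP. Dnajb11 had 84.1, 92.1 and 96.3 CPM in CagriSema livers, against 58.0, 64.4 and 84.3 CPM in weight-matched livers. The lowest CagriSema value lay just under the highest weight-matched value, with a log2 fold change of 0.39 ± 0.09 (edgeR adjusted p = 0.0474). It passed in 5 of 23 fits that left out a library and, without vehicle libraries 4 and 6, at an edgeR adjusted p of 0.0108. In CagriSema against vehicle livers 0 of 24 passed, and in quadriceps 0 of 25 in all 3 comparisons. Canx, the membrane-bound relative of calreticulin, stood at -0.07 ± 0.07 in weight-matched livers and 0.03 ± 0.07 in CagriSema livers against vehicle, and Dnajc3 at 0.05 ± 0.08 and 0.20 ± 0.08. None of these passed in edgeR, and without vehicle libraries 4 and 6 Canx turned to -0.03 in CagriSema livers and Dnajc3 to -0.01 in weight-matched livers.

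Of 12 sensors and transcription factors of the unfolded protein response, 1 rose in weight-matched livers and 0 fell, beside 7.02% of all genes called. Eif2ak3, which encodes the sensor kinase PERK, had 23.96, 28.2 and 37.96 CPM in weight-matched livers, against 12.4, 21.9 and 25.6 CPM in vehicle livers. Its log2 fold change was 0.44 ± 0.12 (edgeR adjusted p = 0.0241), and without vehicle libraries 4 and 6 it was 0.34 (edgeR adjusted p = 0.0223). It lost the call without weight-matched library 25 (adjusted p = 0.0522) or 31 (adjusted p = 0.0566). Xbp1, the factor that IRE1 switches on by splicing, had 164, 213 and 271 CPM in CagriSema livers, 166, 358 and 470.4 CPM in weight-matched livers and 183, 345 and 515 CPM in vehicle livers. The CagriSema median was the lowest and the groups overlapped, at a log2 fold change of -0.72 ± 0.23 against vehicle that did not pass (edgeR adjusted p = 0.139). Gene counts do not tell spliced from unspliced Xbp1. Atf4 stood at -0.40 ± 0.17, Atf6 at 0.35 ± 0.20, Ern1 at 0.09 ± 0.11 and Ddit3 at -0.17 ± 0.15 in CagriSema against vehicle livers, and none passed in edgeR. Without vehicle libraries 4 and 6 Ddit3 turned to 0.02, and Ern1 was within 0.01 of 0. For Atf4 and Atf6 that value is not given here, and both had extreme vehicle libraries. In vehicle livers Atf4 reached 177 CPM at a median of 79.9 CPM, and Atf6 fell to 17.9 CPM at a median of 79.4 CPM. In weight-matched against vehicle livers Atf4 turned from -0.20 to 0.13 without libraries 4 and 6.

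In quadriceps 1 of 11 such genes passed in weight-matched muscle, beside 2.29% of all genes called. It was Atf6b, a relative of ATF6, with 14.4, 17.4 and 18.7 CPM in weight-matched muscle, against 18.9, 20.3 and 23.7 CPM in vehicle muscle. No weight-matched value reached the lowest vehicle value, and the log2 fold change was -0.30 ± 0.07 (edgeR adjusted p = 0.0319), but -0.27 without libraries 2, 5 and 8 (edgeR adjusted p = 0.301), and it passed in 17 of 23 fits that left out a library. The interaction for weight matching was 0.37 ± 0.10 for Atf6b (edgeR adjusted p = 0.0358), passed in 36 of 46 fits that left out a library, and was 0.28 without the 5 libraries that stood apart (edgeR adjusted p = 0.2205). Of 17 genes of degradation from the endoplasmic reticulum, 2 fell in weight-matched livers, beside 7.02% of all genes called. Vcp, the ATPase that pulls proteins out of the membrane, fell by 0.22 on the log2 scale (edgeR adjusted p = 0.0347) and passed in 17 of 23 fits that left out a library. Selenok was at -0.95 ± 0.28 with all libraries (edgeR adjusted p = 0.0422) and at -0.25 without libraries 4 and 6 (edgeR adjusted p = 0.121), and passed in 13 of 23 such fits. Without vehicle library 4 alone it was -0.46. Its interaction for weight matching was -1.20 ± 0.31 (edgeR adjusted p = 0.0228) and passed in 46 of 46 such fits. It was -0.71 without liver vehicle library 4 and -0.41 without the 5 libraries that stood apart (edgeR adjusted p = 0.184).

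Herpud1, a stress-induced gene of the same degradation route, was at 0.34 ± 0.10 in weight-matched muscle and did not pass (edgeR adjusted p = 0.0550). Of 9 targets of the PERK and ATF4 branch, 1 fell in weight-matched livers, beside the same 7.02% of all genes. It was Sesn2, which encodes a leucine sensor, at -0.51 ± 0.13 (edgeR adjusted p = 0.0230), which passed in 22 of 23 fits that left out a library, not without weight-matched library 25. In both tissues 0 of 17 translocon genes and 0 of 12 cytosolic and mitochondrial heat shock genes passed in the 3 comparisons. Apart from those named, no gene of these 6 lists passed within a tissue.

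The counts of list genes between the tissues stand beside 83.4% of all genes called, 6117 of 14110 higher and 5648 lower in liver. In vehicle rats 21 of 25 other chaperones and folding enzymes were higher in liver and 4 lower, with a median log2 difference of 2.02, and 15 of 17 translocon genes were higher and 1 lower, with a median of 1.05. P4hb stood at 3.16 ± 0.09, Ganab, a glucosidase that trims sugar chains, at 2.70 ± 0.08 and Sec61a1, the channel subunit of the translocon, at 3.98 ± 0.12. Among genes of degradation 9 of 17 were higher and 2 lower, with Os9 at 3.12 ± 0.07, Edem2 at 3.55 ± 0.13 and Derl2 at 3.46 ± 0.14. Of 12 sensors and factors 9 were higher and 2 lower: Xbp1 stood at 2.68 ± 0.19 and Eif2ak3 at 2.42 ± 0.14, while Atf4 stood at -1.29 ± 0.14 and Ddit3 at -0.70 ± 0.16. Cytosolic and mitochondrial heat shock genes were divided, with 5 of 12 higher and 5 lower in liver, Bag3 at -2.21 ± 0.12 and Hspa4 at -0.75 ± 0.07. Each of these named differences passed in edgeR, with adjusted p of at most 7.04e-05.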

How the data were processed

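The authors deposited raw integer read counts for 32552 genes in 1 table. The tools listed are fastp 0.23.1 and STAR 2.5.2b, per the submitters' processing notes. The extraction kit was the RNeasy Minikit and the library kit a Twist UMI system, per the labels' protocols. Not given in the sources used here: genome build, counter, strand use, and any counting of molecular identifiers. Titles matched the columns of 46 libraries, and 1 further column was not used.

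In R 4.3.3, edgeR 4.0.16 fitted quasi-likelihood F tests with robust estimation to the 3 groups of a tissue after filterByExpr and TMM scaling, and an interaction over both tissues. Benjamini-Hochberg adjustment ran over every gene tested, with a threshold of 0.05. CPM values use TMM-scaled library sizes. Alternatives were DESeq2 1.42.0, its size factors, no low-count filter, 2 groups alone, leaving out each library, leaving out the libraries that stood apart, and a block for equal numbers. The tests were checked on simulated data in which each gene had the same spread in all groups and no library stood apart. This check thus does not cover the unequal spread and the deviating libraries of the real groups. With 3 counts as the limit set by a count of 0, the floor was 0.183 to 0.365 CPM per liver library and 0.183 to 0.256 CPM per quadriceps library, covering counting error only. Over 253 pairs per tissue no libraries were near-identical, with chi-square per degree of freedom of at least 12.9 in liver and 5.47 in quadriceps. Levels were not compared between genes, since no transcript lengths were used.

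The members, the lists and the libraries that stood apart were chosen with earlier results of these data known. The text names all 10 members, up to 3 genes per pathway list past the threshold with the lowest p in each comparison, 11 genes of the response whether or not they changed, and in each tissue the 5 genes of at least 1 CPM that correlated best with the members. Of 148 list genes, 8 were not matched and are not analysed here, and 2 were matched by an older symbol.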

Additional observations from a re-analysis of the deposited data

Results flagged for a closer look

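Of 60 sets of values, 1 for each gene and group, 14 held a library whose gap to its nearest neighbour exceeded Dixon's 95% critical value for the group size. For normal values chance flags about 1 in 20 such groups. The CPM were not logged and the genes share the same libraries, so the 14 are not independent and are not judged by this rate. In liver, 6 of the 14 were vehicle library 4, at 1504 CPM for Calr, 45.7 CPM for Creld2, 104 CPM for Dnajb9, 368 CPM for Manf, 770.2 CPM for Pdia3 and 61.0 CPM for Sdf2l1. Its nearest neighbours in the group stood at 1037, 32.8, 64.6, 173, 645 and 35.2 CPM for the same genes. The low TMM factor of this library, 0.742, raises all its CPM alike, and its part in these gaps was not tested. In quadriceps, 6 were vehicle library 2, at 6.62 CPM for Creld2, 183 CPM for Hsp90b1, 271 CPM for Hspa5, 53.4 CPM for Hyou1, 35.2 CPM for Manf and 6.26 CPM for Sdf2l1. There the nearest neighbours stood at 4.77, 129, 187, 40.3, 21.4 and 3.18 CPM. The others were weight-matched library 32 of quadriceps, at 40.9 CPM for Dnajb9 with its neighbour at 37.3 CPM, and weight-matched library 25, at 203 CPM for Hspa5 with its neighbour at 183 CPM. No member passed the test of a different response in liver and quadriceps.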

How the results depend on the processing

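Calr and Pdia3 in weight-matched against vehicle livers were the 2 members called within a tissue, and 2 were again called by DESeq2. With DESeq2's size factors 1 was called, and without the low-count filter, with 2 groups alone or without the libraries that stood apart 0 were. Between CagriSema and weight-matched livers 1 member, Calr, was called with 2 groups alone and without those libraries, and DESeq2 called 2 members in weight-matched quadriceps. No other count of members moved under these settings. Leaving out 1 library gave 0 to 2 members in weight-matched against vehicle livers, 0 to 1 between CagriSema and weight-matched livers and 0 to 1 in weight-matched against vehicle quadriceps. Of 3210 refitted member values 67 changed sign, none of them called.

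Counts over all genes moved more. In CagriSema against vehicle livers 45 genes were called, against 289 with DESeq2, 13 without the filter, 4 with 2 groups alone, 18 without the libraries that stood apart, and 3 (without vehicle 8) to 130 (without vehicle 7) leaving out 1 library. In weight-matched against vehicle livers 892 stood against 1351 with DESeq2, 641 without the filter, 414 with 2 groups alone and 1042 without the libraries that stood apart. Leaving out 1 library there gave 532 (without vehicle 6) to 1207 (without vehicle 7). Between CagriSema and weight-matched livers 68 stood against 221, 45 without the filter, 603 with 2 groups alone, 590 without the libraries that stood apart, and 27 (without CagriSema 39) to 335 (without vehicle 4). In CagriSema quadriceps 4 stood against 36 with DESeq2, 2 with 2 groups alone, 0 without the libraries that stood apart and 0 (without vehicle 2) to 7 (without vehicle 1). In weight-matched quadriceps 285 stood against 698 with DESeq2, 131 without the filter, 7 with 2 groups alone, 5 without the libraries that stood apart and 46 (without vehicle 5) to 645 (without vehicle 1). Between CagriSema and weight-matched quadriceps 16 stood against 34 with DESeq2, 7 without the filter and 2 (without weight-matched 26) to 17. The interaction for CagriSema gave 21, against 193 with DESeq2, 13 without the filter, 2 without the libraries that stood apart and 11 (without liver CagriSema 33) to 53 (without liver vehicle 5). That for weight matching gave 389, against 801, 224, 90 and 238 (without liver vehicle 6) to 664 (without liver vehicle 7). The cause of these moves was not tested.

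Liver and quadriceps libraries share 22 numbers in their titles, and 6 of 22 same-numbered pairs correlated above 0.1 (median 0.0737) and 21 were above 0. They did not meet the rule for pairing, and whether equal numbers mean 1 rat is not stated. With the number as a replicate block, the interactions gave 10 and 282 genes for CagriSema and weight matching, with 0 members called in either, and the tissue difference gave 11594 genes with 10 members. Depth limits Sdf2l1 in quadriceps, where its lowest library held 16 counts.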

Other observations

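Some related genes were near 0 in 1 of the tissues. Cdnf, the paralog of Manf, had at most 0.218 CPM in vehicle livers, against 117, 151 and 164 CPM as its lowest, median and highest level in vehicle quadriceps. Manf itself was higher in liver, so these paralogs lay in opposite order between the tissues. In the treated groups Cdnf had 137 to 169 CPM in CagriSema and 146 to 172 CPM in weight-matched quadriceps. Creb3l3, a liver factor that is cut from the membrane like ATF6, had 278 to 383 CPM in CagriSema livers, 323 to 461 CPM in weight-matched livers and 316 to 522 CPM in vehicle livers. In vehicle quadriceps Creb3l3 had at most 0.122 CPM. Vldlr, a target of the PERK and ATF4 branch that encodes a lipoprotein receptor, had at most 1.16 CPM in vehicle livers, against 77.7, 95.5 and 121 CPM in vehicle quadriceps.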
